A study of Homo sapiens with 19 samples.

Results

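SNORD32A, SNORD33, SNORD34 and SNORD35A are box C/D small nucleolar RNAs (snoRNAs) that share RPL13A, the gene of a protein of the large ribosomal subunit, as their host. Their targets were taken as the rows of the RiboMethSeq table whose guide annotation holds 1 of the 4 names exactly, and these were 5 of 120 rRNA sites, measured in all 19 libraries. In 18S rRNA they were 18S-Um1326, with SNORD33 as its only annotated guide, and 18S-Gm1328, annotated to SNORD32A and SNORD32B. In 28S rRNA they were 28S-Am1511, annotated to SNORD32A, SNORD32B and SNORD51, then 28S-Um2824, with SNORD34 alone, and 28S-Cm4506, annotated to SNORD35A and SNORD35B. In the RefSeq gene table (GRCh38.p14) all 4 guides lie inside the span of RPL13A, in the order SNORD32A, SNORD33, SNORD34, SNORD35A, and are 66 to 86 nucleotides long. The same table places SNORD51 inside EEF1B2. So 2 of the 5 sites have an RPL13A-hosted guide as their only annotated guide, and the others have more than 1 annotated guide. Positions are counted along each rRNA as in the deposited table.

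A box C/D snoRNA pairs with rRNA and positions fibrillarin (FBL), the methyltransferase of the particle, over 1 nucleotide, whose ribose then receives a methyl group. Such snoRNAs are mostly cut from introns of their host genes, so several guides can come from 1 host transcript. The RPL13A-hosted guides are known from work on lipid-induced stress, and SNORD34 and SNORD35A from work on self-renewal of leukaemic cells. 18S-Um1326 and 18S-Gm1328 lie in the 3′ major domain of 18S rRNA, which forms the head of the small subunit. 28S-Cm4506 lies in the 28S domain that holds the peptidyl transferase centre, where peptide bonds are made.

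All libraries were made from total RNA of Kasumi-1, an established acute myeloid leukaemia line carrying the AML1-ETO fusion. Of these, 14 libraries in 7 groups of 2 came from knockdown cells, all given doxycycline at 100 ng/ml. Plain knockdown, in which nothing was re-expressed, had a control group and an FBL group. The empty-vector background again had a control group and an FBL group, and 3 more groups carried the knockdown of FBL together with a re-expressed FBL, which was wild type, FBLTri or FBLQua (mutants known here by these names only). The other 5 libraries came from cells for which the labels give no doxycycline. They were a control clone, the SNORD127 knockout clones C1 and C34, and C1 to which either SNORD127 or an empty construct had been added, so each of these lines is 1 clone. The mutant groups follow the sample titles, since the column names of these libraries read Dual for FBLTri and Tri for FBLQua. The control clone is likewise a control by its title, its column being named like a knockout clone. The column names hold shFBL1 and shFBL2 for plain FBL knockdown, and shFBL4 wherever FBL was knocked down with a vector. If these mark hairpins, the hairpin and the vector cannot be told apart, and the replicates of plain FBL knockdown differ in hairpin.

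Score C compares the fragment ends counted next to a site with those counted around it, and approaches 1 where all rRNA molecules are methylated. One minus the score, given below as the percentage of the flank mean, is the signal of unprotected riboses. Libraries held 5533150 to 18835537 end counts. An rRNA end count holds no mRNA, so neither the knockdown of FBL nor the cell line could be checked at its own transcripts. Replicate 2 of empty-vector control knockdown stood apart, with 20.8% of its ends at 1 position of 28S, against at most 4.90% elsewhere. In that library single high counts also fell inside the flanks of 4 of the 5 sites. The largest reached 689% of the flank mean at both 28S-Um2824 (21027 ends, 3 positions before the counted one) and 18S-Um1326 (13728 ends, 5 positions after it), and the same 13728 ends were 549% of the flank mean at 18S-Gm1328. At 28S-Cm4506 it was 274%. Nothing in the labels ties replicates to separate cultures, and the p-values below then reflect only how far these libraries spread, perhaps for technical reasons.

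Every site of the RPL13A-hosted guides was close to fully methylated in the cells with normal FBL. In the 4 control knockdown libraries and the 5 libraries of the SNORD127 experiment the scores ran from 0.943 to 1.00. These 5 sites were among the 89 sites of the table at 0.9 or more in the control clone. The precision differed between them. The mean flank count ranged from 629 to 6556 ends at 28S-Am1511, with a median half-width of the 95% exact Poisson interval of 0.0062. At 28S-Cm4506 it ranged from 42.8 to 534 ends, with 0 to 16 ends at the site itself, and the half-width reached 0.082. These intervals cover the counting error at the site only, with the flank mean held fixed.

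**Figure D1:**
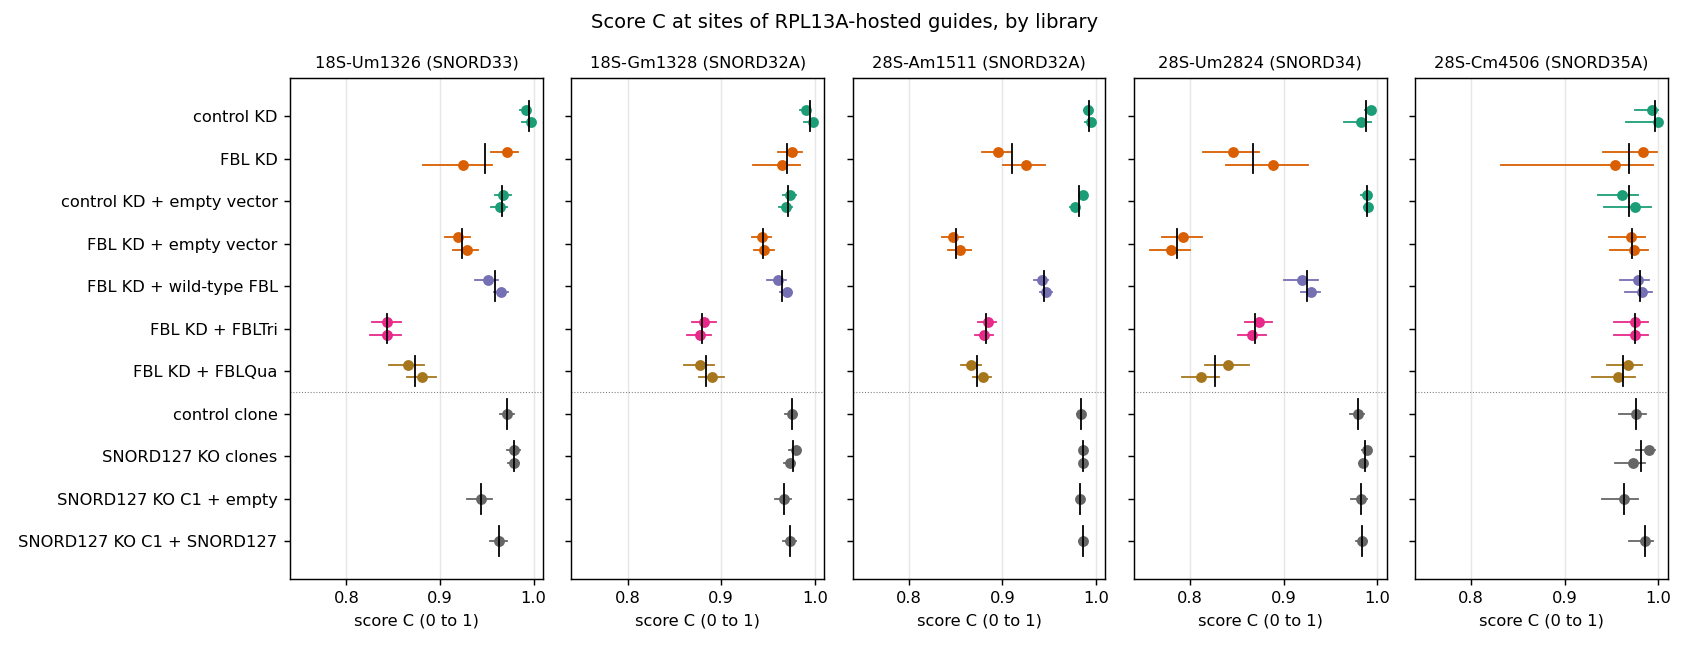
Score C (horizontal axis, a fraction; the axis does not start at 0) at the 5 sites in all 19 libraries (KD, knockdown; KO, knockout). Each point is a library with its 95% exact Poisson counting interval, each short vertical line is a group mean, and the dotted line divides the knockdown from the SNORD127 experiment. 28S-Um2824 reached 0.780 in empty-vector FBL knockdown, whereas 28S-Cm4506 stayed at 0.953 or more in every library.

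28S-Um2824, the SNORD34 site, had the largest loss of the 5. In plain knockdown its score was 0.994 and 0.983 in control knockdown and 0.846 and 0.888 in FBL knockdown. With the empty vector it was 0.989 and 0.9902 in control knockdown and 0.792 and 0.780 in FBL knockdown. The FBL knockdown libraries lay below all control knockdown libraries in both backgrounds, and the ends at the site went from 1.04% to 21.4% of the flank mean with empty vector (366 and 424 ends against 20 and 30). Over both backgrounds the score fell by 0.162 (limma, SE 0.010, 95% interval of the change -0.185 to -0.139, adjusted p = 6.23e-07), which ranked 36th of the 120 sites. The nearest listed site is 13 nucleotides away, outside the flanks of 6 positions, so no other annotated methylation enters this score. The fall was -0.171 when the flank median replaced the weighted mean, a choice made after the high counts above were seen.

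SNORD32A is annotated to a site on each subunit, and the 28S site lost more. At 28S-Am1511 the score was 0.992 and 0.994 in control knockdown and 0.895 and 0.925 in FBL knockdown in plain knockdown, and 0.986 and 0.977 against 0.847 and 0.855 with empty vector. The fall over both backgrounds was -0.107 (limma, SE 0.0066, adjusted p = 6.23e-07). At 18S-Gm1328 the scores were 0.991 and 0.998 against 0.976 and 0.965 in plain knockdown, and 0.974 and 0.969 against 0.944 and 0.946 with empty vector. There the score fell by 0.025 (SE 0.0044, adjusted p = 0.000632 by limma). In neither background did the FBL knockdown libraries overlap the control knockdown libraries at these sites. Across the backgrounds they did at 18S-Gm1328, where replicate 1 of plain FBL knockdown (0.976) scored above both empty-vector controls (0.974 and 0.969). The per-library difference of the 28S minus the 18S site was 0.0043 ± 0.0071 in control knockdown and -0.077 ± 0.026 in FBL knockdown (SD, n = 4 each), a gap of -0.0817 that was the same way in 4 of 4 FBL knockdown libraries (two-sided exact permutation p = 0.0286, the smallest that 70 arrangements allow). Within the backgrounds the gap was -0.059 in plain knockdown and -0.104 with empty vector. The 70 arrangements also exchanged libraries between the backgrounds, and exchange within each background alone was not tested. With exchanges only between libraries of the same replicate number, 36 arrangements, the exact permutation p was 0.0556. With any 1 control library left out the gap ran from -0.0844 to -0.0791 with an exact permutation p of 0.0571, the smallest that 35 arrangements allow. 28S-Am1511 also has SNORD51 as an annotated guide, so the sites do not differ in subunit alone. Whether 28S sites lost more than 18S sites over the whole table was not tested. Its flank holds 28S-1509, the SNORD2 site 2 nucleotides before it, which fell by 0.282, and leaving listed neighbours out of the flanks gave -0.097 at 28S-Am1511 and a gap of -0.0745.

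18S-Um1326, the SNORD33 site, lies 2 nucleotides before 18S-Gm1328, and each enters the flank of the other. Its score was 0.992 and 0.998 in control knockdown and 0.972 and 0.925 in FBL knockdown in plain knockdown. With the empty vector it was 0.968 and 0.964 in control knockdown and 0.919 and 0.928 in FBL knockdown. The FBL knockdown libraries lay below their own controls, but replicate 1 of plain FBL knockdown scored above both controls with empty vector. The score fell over both backgrounds by 0.044 (limma, SE 0.0094, adjusted p = 0.00214), and by 0.039 with listed neighbours left out of the flanks (adjusted p = 0.00201 by limma). The signal in the plain control knockdown libraries rests on 9 and 1 ends, against 61 and 71 with empty vector.

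28S-Cm4506, the site of SNORD35A and SNORD35B, was not called over both backgrounds. Its score was 0.993 and 1.00 in control knockdown and 0.983 and 0.953 in FBL knockdown in plain knockdown, from 2, 0, 2 and 2 ends. With the empty vector it was 0.961 and 0.975 in control knockdown and 0.970 and 0.974 in FBL knockdown, so the groups overlapped. The change over both backgrounds was -0.012 (95% interval -0.027 to 0.0025, adjusted p = 0.122 by limma). Without replicate 1 of plain FBL knockdown it was -0.020 and was called (adjusted p = 0.00406 by limma). A loss as large as that at 28S-Am1511 or 28S-Um2824 lies outside the interval of the pooled change.

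**Figure D2:**
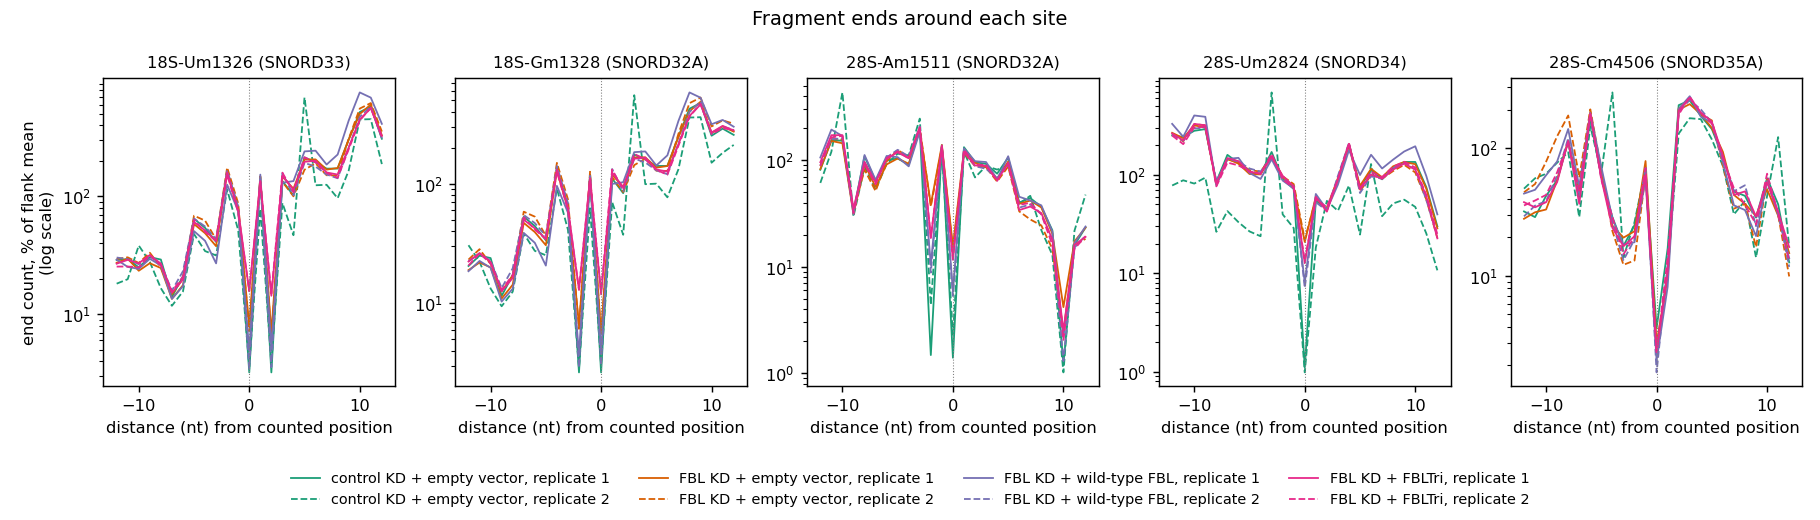
Fragment ends around each site, from 12 nucleotides before to 12 after the counted position, as a percentage of the mean flank count on a log axis. Lines are libraries of 4 groups with a vector (solid, replicate 1; dashed, replicate 2). The gap at 0 is shallower in empty-vector FBL knockdown than in control knockdown at 28S-Am1511 and 28S-Um2824, the pair of gaps 2 nucleotides apart in 18S fills most with FBLTri, and replicate 2 of empty-vector control knockdown shows the high single counts given above, besides 1 at 28S-Am1511 (431% of the flank mean, 10 nucleotides before) that lies outside its flank.

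Counted together, 4 of the 5 sites fell in FBL knockdown over both backgrounds (limma, adjusted p under 0.05), beside 71.7% of the 120 sites that were called lower, and 3 of the 4 turned positive when library medians were made equal. The median change of the 5 was -0.044, against -0.085 over all sites and -0.078 over the 89 sites at 0.9 or more in the control clone. The library medians themselves moved by -0.118. With library medians made equal, 28S-Um2824 still fell, by 0.044 (adjusted p = 0.00667), while 18S-Um1326, 18S-Gm1328 and 28S-Cm4506 were called higher, at 0.074, 0.093 and 0.106, and 28S-Am1511 was at 0.011 (adjusted p = 0.146, all by limma). On the deposited scale, therefore, 4 sites fell, but relative to the library medians 1 fell. The call of 18S-Gm1328 was lost with the flank median (-0.019, adjusted p = 0.0508 by limma).

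Guides from other hosts gave the setting for these counts. GAS5 is a non-coding gene known for its snoRNA-bearing introns, and 10 of its 10 sites fell (median change -0.071). For SNHG1, another non-coding host, 4 of 8 fell (median -0.041). For guides hosted in other ribosomal protein genes, 20 of 25 fell (median -0.111). This list and the 5 sites have 1 site in common. SNORD14 and SNORD43, like SNORD34 and SNORD35A, have been studied in leukaemic self-renewal. The 2 sites matched to SNORD14 and SNORD43 were at -0.0048 (SNORD14) and -0.0050 (SNORD43), and neither was called. These pooled values join opposite directions, 0.011 to 0.030 in plain knockdown and -0.040 to -0.021 with empty vector, none of them called. The difference between backgrounds was called at the SNORD14 site (-0.070, adjusted p = 0.0461 by limma). 28S-1327, the site of SNORD104, which was left out of this pair, was at -0.219 and was called lower (adjusted p = 1.82e-05 by limma). Whether the sites of guides studied in leukaemia changed as a group was not tested.

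**Figure D3:**
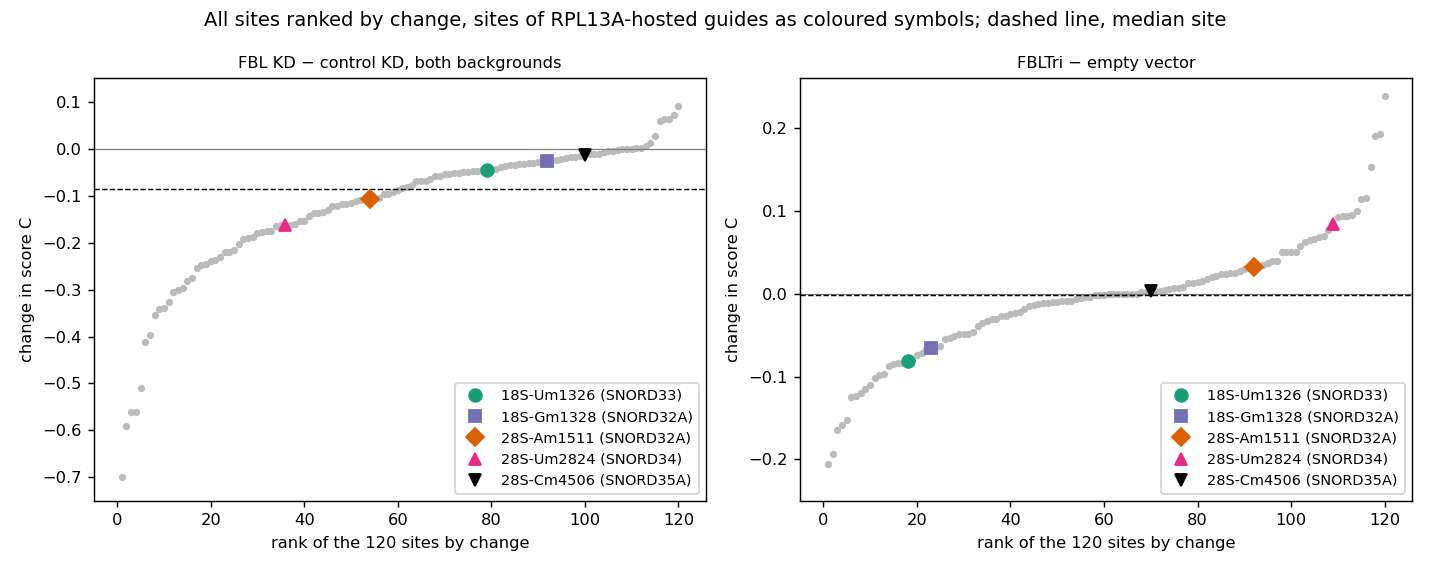
The 120 sites ranked by the change in score C in FBL knockdown over both backgrounds (left) and with FBLTri relative to empty vector (right). Coloured symbols are the 5 sites, grey points the other sites, the dashed line the median site. At left only 28S-Um2824 (-0.162) and 28S-Am1511 (-0.107) lie below the median of -0.085, and with library medians made equal the other 3 turn positive and 28S-Am1511 is at 0.011. At right the 18S sites lie below 0 and 28S-Um2824 and 28S-Am1511 above it.

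Plain and empty-vector knockdown have no library in common. In plain knockdown 5 of the 5 sites were called lower, beside 59.2% of all sites, and with empty vector 4 of the 5, beside 67.5%. When library medians were made equal, 28S-Um2824 alone kept its direction in each background. The plain call of 28S-Cm4506 rests on 2 and 0 ends in control knockdown and 2 and 2 in FBL knockdown, with overlapping counting intervals. Its mean score in plain FBL knockdown, 0.968, was level with that of the empty-vector controls, 0.968. In the order 18S-Um1326, 18S-Gm1328, 28S-Am1511, 28S-Um2824 and 28S-Cm4506 the changes were -0.047, -0.024, -0.083, -0.121 and -0.028 in plain knockdown. With empty vector they were -0.042, -0.026, -0.131, -0.204 and 0.0039. The effect itself was called more negative with empty vector at 28S-Um2824 (difference -0.083, SE 0.020, adjusted p = 0.0193 by limma) and 28S-Am1511 (-0.048, SE 0.013, adjusted p = 0.0263 by limma), beside 25% of all sites. Neither of these was called with library medians made equal (-0.044 and -0.0090), on a logit scale or in a fit of the compared groups alone (adjusted p = 0.0505 and 0.0935 by limma), nor was 28S-Um2824 with the flank median (-0.055). The call of 28S-Um2824 was also lost without replicate 2 of empty-vector FBL knockdown (-0.077) or replicate 2 of plain control knockdown (-0.077). That of 28S-Am1511 was lost on dropping either empty-vector FBL knockdown library (-0.044 and -0.052), either plain control knockdown library (-0.047 and -0.049) or replicate 1 of empty-vector control knockdown (-0.043). The 18S sites differed by 0.0044 (18S-Um1326) and -0.0026 (18S-Gm1328), and neither was called. In plain knockdown the calls of 18S-Um1326 and 18S-Gm1328 were lost without replicate 2 of control knockdown (-0.044 and -0.020), and that of 28S-Cm4506 without replicate 1 or 2 of control knockdown (-0.032 and -0.025) or replicate 2 of FBL knockdown (-0.013). With empty vector the call of 18S-Um1326 was lost without replicate 1 of FBL knockdown (-0.038) or replicate 1 or 2 of control knockdown (-0.040 and -0.044), and those of both 18S sites with the flank median (-0.027 and -0.012) or flanks of 2 positions (-0.031 and -0.014).

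Re-expression of wild-type FBL asked whether the lost methylation returns with the enzyme. Of the 5 sites 3 rose relative to empty vector, beside 57.5% of all sites, and 2 of the 3 (28S-Am1511 and 18S-Gm1328) turned negative with library medians made equal. 28S-Um2824 reached 0.920 and 0.929 and rose by 0.139 (SE 0.014, adjusted p = 4.14e-05 by limma). 28S-Am1511 reached 0.942 and 0.947 and rose by 0.094 (SE 0.0094, adjusted p = 3.61e-05 by limma). Both libraries lay above the empty-vector libraries and below the control knockdown libraries at these sites. 18S-Gm1328 reached 0.960 and 0.970 and rose by 0.020 (SE 0.0062, adjusted p = 0.0219 by limma). 18S-Um1326 reached 0.951 and 0.966, a change of 0.034 (SE 0.013) that missed the threshold (adjusted p = 0.0514 by limma). 28S-Cm4506, at 0.978 and 0.982, was not called. The library medians moved by 0.096, and relative to them 28S-Um2824 was at 0.043 (adjusted p = 0.0508 by limma) and 28S-Am1511 at -0.0022, while 18S-Um1326, 18S-Gm1328 and 28S-Cm4506 were called lower. The call of 18S-Gm1328 was lost without replicate 2 of wild-type FBL (0.015), without replicate 1 or 2 of empty-vector FBL knockdown (0.019 and 0.021), with flanks of 2 positions (0.023) and with the flank median (0.014).

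Against empty-vector control knockdown, 2 of the 5 sites were still lower with wild-type FBL, beside 29.2% of all sites, though 28S-Am1511 turned positive with library medians made equal. They were 28S-Um2824 (-0.065, SE 0.014, adjusted p = 0.00835) and 28S-Am1511 (-0.037, SE 0.0094, adjusted p = 0.0153, both by limma). The changes at 18S-Um1326, 18S-Gm1328 and 28S-Cm4506 were -0.0078, -0.0063 and 0.012, with 95% intervals of -0.038 to 0.022, -0.020 to 0.0078 and -0.0084 to 0.033. The call of 28S-Um2824 was lost without replicate 1 of wild-type FBL (-0.061). That of 28S-Am1511 was lost without either replicate of wild-type FBL (-0.035 and -0.040) or replicate 1 of the control (-0.033). With library medians made equal neither was called (-0.023 and 0.0046), and 18S-Gm1328 and 28S-Cm4506 were called higher (0.035 and 0.054).

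Relative to the empty vector FBLTri lowered both 18S sites of these guides and raised 28S-Am1511 and 28S-Um2824. With FBLTri 18S-Um1326 scored 0.843 and 0.843, against 0.919 and 0.928 with empty vector, and 18S-Gm1328 scored 0.882 and 0.877, against 0.944 and 0.946. These were the lowest scores of 18S-Um1326 in the 19 libraries, with 382 and 358 ends at the site against 146 and 115 with empty vector. Relative to empty vector 18S-Um1326 fell by 0.081 (SE 0.013, adjusted p = 0.00157) and 18S-Gm1328 by 0.066 (SE 0.0062, adjusted p = 4.77e-05, both by limma). 28S-Um2824 scored 0.873 and 0.866, against 0.792 and 0.780, and rose by 0.084 (SE 0.014, adjusted p = 0.00186 by limma). 28S-Am1511 scored 0.884 and 0.881, against 0.847 and 0.855, and rose by 0.032 (SE 0.0094, adjusted p = 0.0323 by limma). The FBLTri and empty-vector libraries did not overlap at any of the 4 sites. Of the 5 sites 2 were thus lower and 2 higher, beside 20% and 16.7% of all sites. 28S-Cm4506, at 0.975 in both libraries, was not called. The library medians moved by -0.0011 here, and making them equal changed none of these 4 calls.

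The opposite directions include the 18S and the 28S site annotated to SNORD32A. The difference between those changes was not itself tested. The FBLTri call of 28S-Am1511 was lost without replicate 1 or 2 of FBLTri (0.030 and 0.034) or of empty-vector FBL knockdown (0.028 and 0.036), and with flanks of 2 positions (0.026). On a logit scale 18S-Gm1328 alone of the 5 was called with FBLTri. The neighbour of 28S-Am1511, 28S-1509, rose by 0.191 with FBLTri, and with listed neighbours left out of the flanks the change at 28S-Am1511 was 0.031 (adjusted p = 0.0253 by limma).

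With FBLQua the 18S sites were also lower than with empty vector. 18S-Um1326 scored 0.866 and 0.881 and fell by 0.051 (limma, SE 0.013, adjusted p = 0.0286), and 18S-Gm1328 scored 0.877 and 0.890 and fell by 0.061 (SE 0.0062, adjusted p = 0.000363 by limma). So 2 of the 5 sites were called lower, beside 11.7% of all sites. 28S-Um2824 scored 0.841 and 0.812, a change of 0.041 (adjusted p = 0.0776 by limma), and 28S-Am1511 scored 0.867 and 0.879, a change of 0.022 (adjusted p = 0.142 by limma). These libraries too lay above those with empty vector at both 28S sites, but neither change was called. 28S-Cm4506 scored 0.967 and 0.956 and was not called. FBLTri and FBLQua were not called as different at any of the 5 sites, beside 8.33% of all sites, with unadjusted p-values of 0.0149 at 28S-Um2824 and 0.0518 at 18S-Um1326 and above 0.05 at the others. The FBLQua call of 18S-Um1326 was lost without replicate 1 of FBLQua (-0.043), without replicate 1 or 2 of empty-vector FBL knockdown (-0.055 and -0.046), with the flank median (-0.052) and on a logit scale. In a fit of the compared libraries alone neither 18S site was called (adjusted p = 0.0891 and 0.0857 by limma).

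Against wild-type FBL, 4 of the 5 sites were lower with FBLTri, beside 62.5% of all sites, and 4 with FBLQua, beside 59.2%, and of these 18S-Um1326 with FBLTri alone kept its direction with library medians made equal. In the order 18S-Um1326, 18S-Gm1328, 28S-Am1511 and 28S-Um2824 the changes were -0.115, -0.086, -0.062 and -0.055 with FBLTri and -0.085, -0.082, -0.072 and -0.098 with FBLQua. 28S-Cm4506 was at -0.0055 and -0.019 and was not called. The library medians moved by -0.097 with FBLTri and -0.102 with FBLQua. Relative to them 28S-Am1511 was called higher with each mutant (0.035 and 0.030), as was 28S-Cm4506 (0.091 and 0.083), and the other 3 sites were not called (-0.018, 0.011 and 0.042 with FBLTri, and 0.016, 0.020 and 0.0035 with FBLQua, in the order above). The FBLTri call of 28S-Um2824 was lost without replicate 2 of wild-type FBL (-0.050, adjusted p = 0.0517 by limma).

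**Figure D4:**
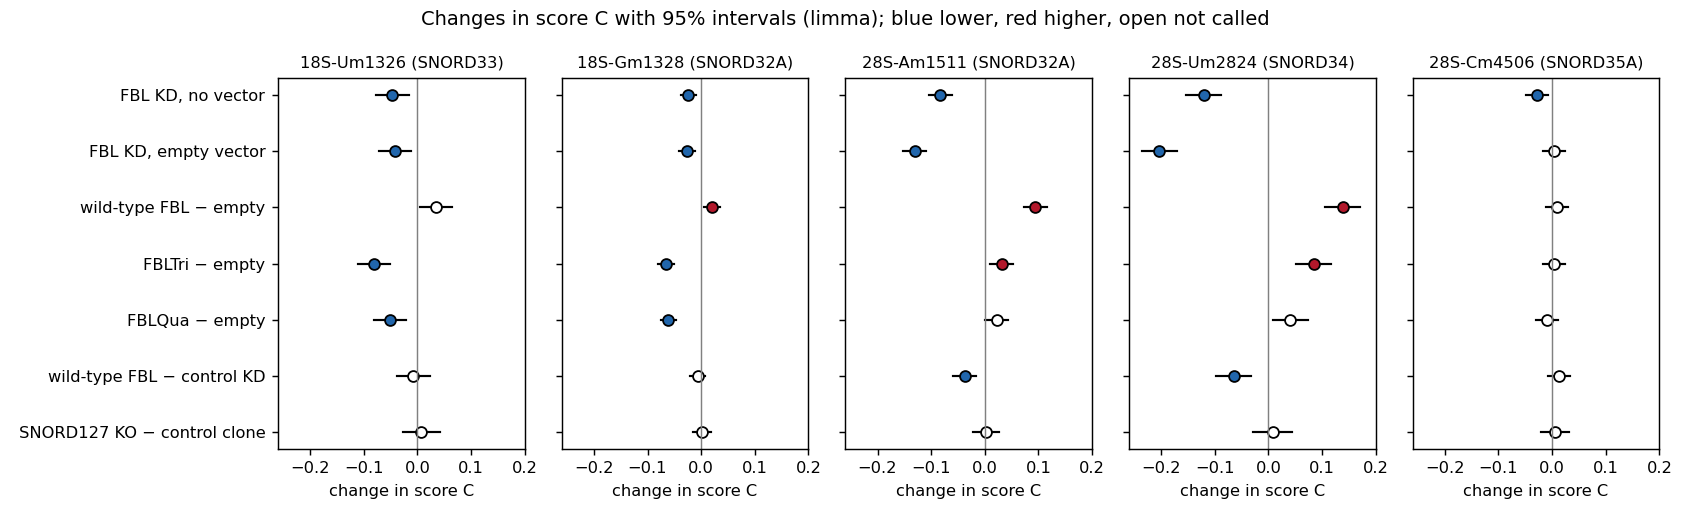
Change in score C (horizontal axis) at the 5 sites in 7 comparisons (KD, knockdown; KO, knockout; no vector, plain knockdown), with 95% intervals from limma. Filled points passed an adjusted p of 0.05 (blue lower, red higher) and open points did not. With library medians made equal the knockdown changes of 18S-Um1326, 18S-Gm1328 and 28S-Am1511 turn positive in both backgrounds, that of 28S-Cm4506 does so in plain knockdown, those with wild-type FBL relative to empty vector turn negative at all but 28S-Um2824, the wild-type change from control knockdown turns positive at both 18S sites and 28S-Am1511, the uncalled SNORD127 changes of 18S-Gm1328 and 28S-Am1511 turn negative, and those with the mutants relative to empty vector keep their sign.

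Loss of SNORD127, the guide of another 18S site, served as a comparison in which no RPL13A-hosted guide was targeted. None of the 5 sites was called between the knockout clones C1 and C34 and the control clone, and 0 of the 120 sites were (limma, with 3 sites at an unadjusted p under 0.05). The control clone is 1 library, so its spread was taken from the other groups. The SNORD127 site itself, 18S-1447, named after its values were seen, scored 0.178 and 0.254 in the knockout clones against 0.543 in the control clone, and this change of -0.327 (SE 0.080) was not called either (adjusted p = 0.301 by limma). The changes at the 5 sites ran from 0.0014 to 0.0078. 28S-Um2824 scored 0.979 in the control clone and 0.989 and 0.985 in the knockout clones. 28S-Cm4506 scored 0.976 against 0.9899 and 0.973. In clone C1 with empty vector 18S-Um1326 scored 0.943 (95% counting interval 0.929 to 0.956), and with SNORD127 it scored 0.963 (0.953 to 0.971). These are single libraries and were not tested.

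Across the 14 knockdown libraries 18S-Um1326 varied most like 18S-Gm1328 among the 5 sites, and 28S-Am1511 most like 28S-Um2824, while 28S-Cm4506 paired with neither. As a description over libraries that share groups and depth, Pearson's r was 0.97 between the 18S sites, which enter each other's flanks, and 0.97 between 28S-Am1511 and 28S-Um2824, which lie far apart. Between an 18S site and either of these 28S sites it was 0.59 to 0.74. 28S-Cm4506 had r of 0.42 to 0.51 with the other 4. Its scores rest on 0 to 16 ends each, and whether counting error lowered these r was not tested. The 2 sites most like 18S-Gm1328 over these libraries were 18S-116 (SNORD42 guides, r = 0.98) and 18S-Um1326. The same site, 18S-116, was the most like 18S-Um1326 (r = 0.98). For 28S-Am1511 they were 28S-2811 (SNORD95, r = 0.99) and 28S-3787 (SNORD10, r = 0.99), and for 28S-Um2824 they were 28S-2411 (SNORD6, r = 0.98) and 28S-4198 (SNORD58 guides, r = 0.98). The closest to 28S-Cm4506 were 18S-1391 (SNORD28, r = 0.75) and 28S-3820 (SNORD74, r = 0.73). None of these closest sites but 18S-Um1326 and 18S-Gm1328 has an RPL13A-hosted guide.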

How the data were processed

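RiboMethSeq was run on alkali-fragmented total RNA, per the labels' protocols. Cutadapt and Bowtie2 are named, per the submitters' processing notes. No label or header names their versions, settings or reference, which are thus not given in the sources used here. What the authors deposited is raw counts of fragment ends at 7000 rRNA positions and score C, a fraction from 0 to 1, for 120 sites. Score C is 1 minus the count 1 position after the site over the weighted mean of 6 positions on either side, and recomputing it from the counts matched all 2280 deposited scores within 1e-09. Because it is a ratio within a library, depth sets its precision, and whether depth also shifts its level was not tested. Plain control knockdown had fewer end counts than empty-vector control knockdown. In the order 18S-Um1326, 18S-Gm1328, 28S-Am1511, 28S-Um2824 and 28S-Cm4506, the plain control means were 0.995, 0.994, 0.993, 0.988 and 0.997. Those of the empty-vector controls were 0.966, 0.971, 0.982, 0.990 and 0.968.

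Sites of the 4 guides were found by exact match in the annotation, and their base letters come from background knowledge. Deposited scores of all 120 sites were fitted with limma 3.58.1 in R 4.3.3 (1 coefficient per group, variance trend, two-sided, Benjamini-Hochberg adjustment over the 120 sites at 0.05), with the 14 knockdown libraries in 1 fit and all 19 for the knockout clones. The fit was tested on simulated data. Sites named were the 5, 28S-1509 (listed within 12 nucleotides), the 2 with the highest r, and the sites of SNORD14, SNORD43, SNORD104 and SNORD127. 28S-1521, also within 12 nucleotides of 28S-Am1511, lies outside its flank. The members, lists and tests were chosen with earlier results of these data known. Replicate pairs differed by a chi-square of at least 17.9 per position, so none was counted as 1 sample. Alternatives were the compared groups alone, a logit scale (scores kept within 0.01 to 0.99), flanks of 2 positions, listed neighbours left out of the flanks, equal library medians, the 10% of sites with the lowest flank counts left out (none of the 5), a replicate block and each library left out. The flank median was added after seeing the data. Tables were handled with pandas 2.3.3 and numpy 2.4.6 in Python 3.11.15, the exact tests and intervals came from scipy 1.17.1, and matplotlib 3.10.9 drew the figures.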

Additional observations from a re-analysis of the deposited data

Results flagged for a closer look

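The effect of FBL knockdown differed between the plain and the empty-vector background at 2 of the 5 sites by a test of the difference itself (limma, adjusted p under 0.05). At 28S-Um2824 the difference was -0.083, more negative with the empty vector, and its adjusted p ranged from 0.0023 to 0.205 over 17 fits, of which 11 called it. At 28S-Am1511 it was -0.048, also more negative with the empty vector, with a range of adjusted p from 0.00139 to 1 and a call in 9 of 17. Neither was called with library medians made equal, on a logit scale or with the compared groups alone. The vector and the shFBL number of the column names cannot be told apart.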

How the results depend on the processing

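Of 745 recomputed changes of single sites, 630 kept their direction and side of the threshold, 59 lost and 8 gained a call, and 48 turned direction, of which 21 were called in neither fit. Library medians made equal turned 30 of the 48. For 18S-Um1326, 18S-Gm1328 and 28S-Am1511, in that order, the FBL knockdown changes became 0.0738, 0.0930 and 0.0113 over both backgrounds, 0.0521, 0.0749 and 0.0158 in plain knockdown and 0.0954, 0.111 and 0.0068 with the empty vector, and 28S-Cm4506 became 0.106 over both and 0.0706 in plain knockdown. Wild-type FBL against the empty vector became -0.0614, -0.0757 and -0.0022, and -0.0874 at 28S-Cm4506. Against control knockdown it became 0.0340, 0.0355 and 0.0046. The background difference of 18S-Gm1328 became 0.0362, and the SNORD127 changes of 18S-Gm1328 and 28S-Am1511 became -0.0017 and -0.00050. Against wild-type FBL, FBLTri became 0.0112 at 18S-Gm1328, 0.0351 at 28S-Am1511, 0.0424 at 28S-Um2824 and 0.0914 at 28S-Cm4506, and FBLQua 0.0164 at 18S-Um1326, 0.020 at 18S-Gm1328, 0.0300 at 28S-Am1511, 0.0035 at 28S-Um2824 and 0.0829 at 28S-Cm4506. By construction this setting measures each site against its library. On the logit scale, whose values are log-odds and not score C, the background difference turned to 0.0037 at 28S-Am1511 and 0.394 at 18S-Gm1328. Uncalled values also turned with flanks of 2 positions and with the flank median, in that order: 0.0175 and 0.0136 for the background difference of 18S-Gm1328, 0.00060 and 0.0104 for wild-type FBL against control knockdown at 18S-Um1326, 0.0096 and 0.0025 for the same at 18S-Gm1328, and 0.00033 and 0.0028 for FBLTri against FBLQua at 18S-Gm1328. Leaving out 1 library turned 8 uncalled values: 28S-Cm4506 ran from -0.0031 to 0.0110 in empty-vector knockdown and from -0.0029 to 0.0143 in the SNORD127 clones, the background difference from -0.0189 to 0.0278 at 18S-Um1326 and from -0.0081 to 0.0028 at 18S-Gm1328, and 18S-Gm1328 from -0.0109 to 0.0024 for FBLTri against FBLQua and from -0.0015 to 0.0043 in the SNORD127 clones.

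Counts of the 5 sites called moved as follows, and the cause was not tested. With equal medians they were 3 in plain knockdown, 1 for the background difference and 2 for each mutant against wild-type FBL, all higher. With the compared groups alone, which have fewer libraries, they were 2 in plain knockdown, 0 for the background difference and 0 for FBLQua against the empty vector. On the logit scale they were 0 for the background difference and 1 for each mutant against the empty vector. Empty-vector knockdown gave 2 with flanks of 2 positions and 2 with the flank median, which gave 1 for the background difference and 1 for FBLQua against the empty vector. Leaving out 1 library gave 2 to 5 in plain knockdown, 0 to 2 for the background difference, 0 to 2 for wild-type FBL against control knockdown and 1 to 2 for FBLQua against the empty vector. With 1 library left in a group, its spread was assumed to be that of the other groups.

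Same-numbered replicates shared deviations in some pairs of groups but not in others. Over 21 pairs of groups the correlation of deviations ran from -0.226 to 0.694 and was above 0.1 in 12. A replicate block changed no call in 55 of 55 results of single sites. With exchanges only within the replicate block, the SNORD32A gap of -0.0817 had an exact permutation p of 0.0556. Leaving out 1 library gave gaps of -0.0942 to -0.0752. Depth limits 28S-Cm4506 most, where 0 to 16 ends carry each score.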
